A study of Mus musculus with 3 samples.

Results

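The ErbB genes followed here are 10 genes named by symbol: the ligand genes Areg, Ereg, Hbegf, Tgfa and Nrg1, the receptor genes Egfr, Erbb2 and Erbb3, and the feedback genes Dusp4 and Dusp6. All 10 had a row in each of the 3 deposited libraries, out of 46675 genes with a row in any library. They were read in single cells of the glandular stomach (hindstomach) of mouse embryos at embryonic day 18.5. The first library came from Shh-Cre;YAP5SA embryos (called YAP5SA), the second from Shh-Cre;YaploxP/loxP embryos (called Yap knockout) and the third from embryos with Shh-Cre alone (control). All 3 groups therefore carry Shh-Cre, a recombinase driven by the Shh gene, which is active in the embryonic gut epithelium. YAP5SA is a form of the Hippo pathway coactivator YAP whose inhibitory phosphorylation sites are mutated. The question the design poses is how YAP activity states differ in this tissue. There was 1 library per genotype, and the sources used here do not give the number of embryos behind it. No difference was therefore checked in replicates, and no test between genotypes was possible. Every interval is a 95% interval for counting error only.

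ErbB receptors are tyrosine kinases of the cell surface. Amphiregulin (Areg), epiregulin (Ereg), heparin-binding EGF-like growth factor (Hbegf) and transforming growth factor alpha (Tgfa) are made as membrane proteins, are released by shedding proteases and bind EGFR, while neuregulin 1 (Nrg1) binds ERBB3 and ERBB4. ERBB2 has no known ligand and acts as a partner of the others, and ERBB3 has little kinase activity of its own. The receptors signal through RAS and the MAP kinases ERK1 and ERK2, and Dusp4 and Dusp6 encode phosphatases that remove the activating phosphates from ERK. In the stomach, excess of EGFR ligand is known for expansion of pit (surface mucous) cells at the cost of parietal (acid-secreting) cells.

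Promoter sequence was at hand for 5 of the 10 genes: Areg, Tgfa, Egfr, Erbb2 and Dusp6. The 250 bases before the start of 4 of them are shown: Areg, Tgfa and Egfr as genes whose YAP5SA epithelial level was about 2-fold above or below the control, and Erbb2 because it holds the only match to the TEAD motif. The sequences are from RefSeq on GRCm38.p6, all on the plus strand. They lie at chr5:91139349-91139598 (Areg), chr6:86194972-86195221 (Tgfa), chr11:16751953-16752202 (Egfr) and chr11:98412234-98412483 (Erbb2). Capitals mark motif matches.
Areg: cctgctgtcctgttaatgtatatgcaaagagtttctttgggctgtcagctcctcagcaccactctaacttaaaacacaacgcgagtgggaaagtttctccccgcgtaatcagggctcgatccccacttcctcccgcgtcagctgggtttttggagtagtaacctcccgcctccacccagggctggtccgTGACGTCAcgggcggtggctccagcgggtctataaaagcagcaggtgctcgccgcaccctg
Tgfa: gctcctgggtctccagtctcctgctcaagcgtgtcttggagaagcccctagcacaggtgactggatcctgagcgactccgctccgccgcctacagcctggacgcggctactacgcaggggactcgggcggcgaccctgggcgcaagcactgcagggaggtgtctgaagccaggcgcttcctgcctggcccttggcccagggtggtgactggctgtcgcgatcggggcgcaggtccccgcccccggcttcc
Egfr: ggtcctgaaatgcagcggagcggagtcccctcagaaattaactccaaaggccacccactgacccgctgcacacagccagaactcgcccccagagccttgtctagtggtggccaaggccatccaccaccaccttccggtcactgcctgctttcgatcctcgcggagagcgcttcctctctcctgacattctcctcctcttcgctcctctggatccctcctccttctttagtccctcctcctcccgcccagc
Erbb2: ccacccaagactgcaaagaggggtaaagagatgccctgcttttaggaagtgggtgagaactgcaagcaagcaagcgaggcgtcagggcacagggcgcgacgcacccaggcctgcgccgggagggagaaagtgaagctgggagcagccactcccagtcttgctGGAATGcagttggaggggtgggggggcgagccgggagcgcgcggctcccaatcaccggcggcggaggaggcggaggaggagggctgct
Each window was searched on both strands for 3 motifs: GGAATG, the core bound by TEAD factors, the partners of YAP; TGANTCA, the AP-1 motif; and TGACGTCA, the cyclic AMP response element (CRE). The TGACGTCA match of Areg begins 61 bases before the start, and 1.55% of all 32851 windows of this length hold that motif. The GGAATG match of Erbb2 begins 88 bases before the start, and 12.6% of windows hold that motif. TGANTCA, held by 6.75% of windows, was in none of the 5. The Tgfa, Egfr and Dusp6 windows held none of the 3 motifs.

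The cells came from 9439 YAP5SA, 5739 Yap knockout and 7692 control barcodes, of which 8512 YAP5SA, 4892 Yap knockout and 6931 control cells were kept. Between any pair of libraries 1388 to 2409 barcode names were shared, and no cell had identical counts in 2 libraries. Cells were put in classes by the UMIs (unique molecular identifiers, 1 per captured messenger RNA molecule) of marker genes, and names ending in "-like" rest on those markers. The epithelial-like class held 1782 YAP5SA, 1027 Yap knockout and 705 control cells, with a median of 6268.5 UMIs per YAP5SA, 3451 per Yap knockout and 3190 per control cell. Marker genes not used to choose the class were far higher inside it than outside, for example Rab25 at 248 against 11.1 CPM (the gene's UMIs per 1000000 UMIs of the class sum). The UMIs of stromal genes differed between the epithelial-like sums: 8 fibroblast markers summed to 3214 CPM in YAP5SA, 1123 CPM in the Yap knockout and 7604 CPM in the control. Their part in the results below was not tested. Of all UMIs in the epithelial-like sums, 28.7% in YAP5SA, 27.4% in the Yap knockout and 40.7% in the control would come from other cells if all collagen UMIs there did; subtracting that surrounding profile is one of the alternatives below. In a clustering of all cells, 1532 of the YAP5SA cells stood in 1 epithelial cluster led by Ankrd1, Cldn6 and Wfdc2, with 0 Yap knockout and 2 control cells in it. The control and Yap knockout epithelium stood mainly in clusters led by Tff1 and Tff2 and by Slc5a5 and Ern2. In YAP5SA 1 cell was pit-like, 5 were neck- and chief-like and 3 parietal-like, against 115, 94 and 46 cells of those subclasses in the control. The knocked-out gene itself, Yap1, was at 55.2 CPM in YAP5SA, 22.8 CPM in the Yap knockout and 46.8 CPM in the control epithelial-like sums; a 3′ tag outside the deleted part would check nothing, and the labels do not say which part is deleted.

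In YAP5SA epithelium Tgfa, Nrg1 and Egfr were more than 2-fold above the control, while Areg and Erbb3 were lower. In Yap knockout epithelium Dusp4 stood 4.12-fold above the control, Areg was 1.78-fold higher, and Ereg had 2 UMIs in all. Areg and Erbb3 were lower than the control in YAP5SA and higher than it in the Yap knockout, and both comparisons share the control library. Among the 6 of the 10 genes that reached 20 CPM in one of the libraries compared, 2 were at least 2-fold higher in YAP5SA and 0 at least 2-fold lower, where 12.8% of all genes at that level were higher and 8.54% lower. At 5 CPM or more, 3 of 9 genes were at least 2-fold higher in YAP5SA and 0 lower, beside 12.7% and 10.3% of all genes. In the Yap knockout, 1 of 6 genes at 20 CPM or more was at least 2-fold higher and 0 lower, beside 3.20% and 3.05% of all genes, and 1 of 9 genes at 5 CPM or more was higher and 0 lower, beside 5.66% and 5.00%. These members were listed, not drawn at random, and the counts are too small to be called particular to them. The median log2 ratio over all 10, with 5 CPM added to each level, was 0.41 in YAP5SA and 0.11 in the Yap knockout. That of all genes at 20 CPM or more was 0.15 in YAP5SA and 0.04 in the Yap knockout. At 5 CPM or more it was 0.08 in YAP5SA and 0.05 in the Yap knockout. The 10 were taken at any level, so these sets are not alike.

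**Figure D1:**
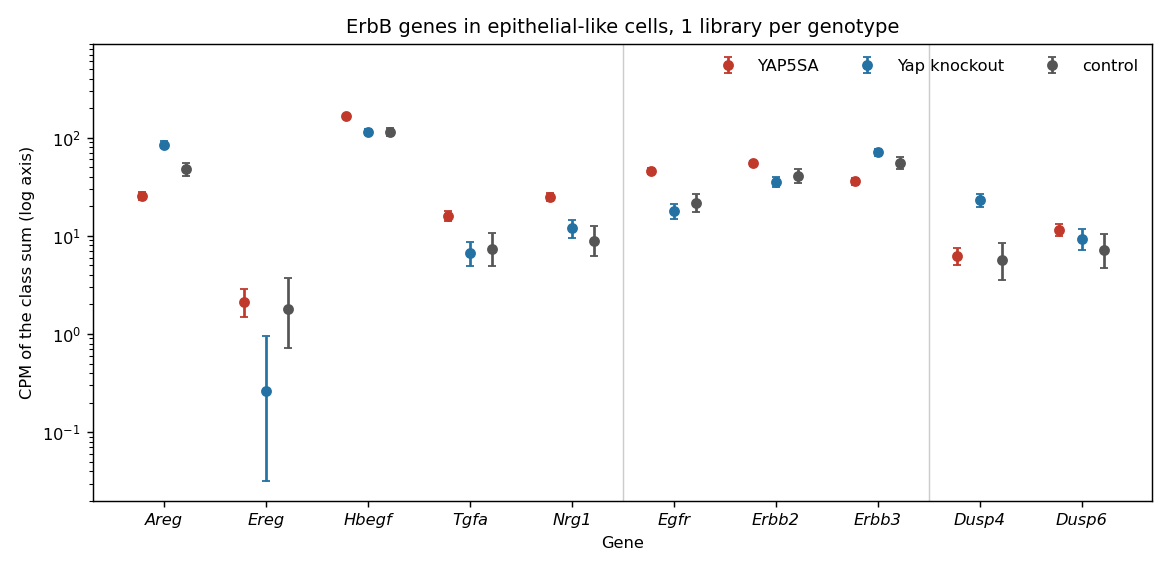
CPM of the epithelial-like class sum for each ErbB gene in the YAP5SA, Yap knockout and control libraries (log axis; 1 library per genotype, points are the values and bars the exact Poisson 95% intervals). Areg was lowest in YAP5SA at 25.4 CPM and highest in the Yap knockout at 84.7 CPM, Dusp4 stood apart in the Yap knockout at 23.2 CPM, and Egfr, Tgfa and Nrg1 were highest in YAP5SA.

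Areg was at 25.4 CPM in YAP5SA epithelium (446 UMIs), 84.7 CPM in the Yap knockout (640 UMIs) and 47.6 CPM in the control (186 UMIs). The ratio to control was 0.533 (0.448 to 0.636) in YAP5SA and 1.78 (1.51 to 2.11) in the Yap knockout, and the 3 intervals of the level did not overlap. Amphiregulin UMIs were in 14.0% of YAP5SA, 20.3% of Yap knockout and 13.9% of control epithelial-like cells, a measure that moves with depth. Thinned to 1000 UMIs per cell, the share was 2.76% in YAP5SA, 7.14% in the Yap knockout and 5.28% in the control. Without thinning, 4.41% of YAP5SA and 3.85% of control erythroid-like cells had an Areg UMI. Those cells should lack the gene and had a median depth of 7160.5 UMIs in YAP5SA and 7102.5 UMIs in the control. Their shares are to be set beside the unthinned epithelial shares, not the thinned ones. Areg was thus lowest in YAP5SA and highest in the Yap knockout by level and by thinned share. After subtraction of the surrounding profile the YAP5SA ratio was 0.332. By subclass, Areg was at 141 CPM in the Yap knockout and 113 CPM in the control pit-like cells, a ratio of 1.25 (0.931 to 1.69) that the interval does not separate from 1. In neck- and chief-like cells it was at 72.1 CPM in the Yap knockout and 27.9 CPM in the control, a ratio of 2.59 (1.49 to 4.76), and in epithelial-like cells of no subclass it was at 85.5 CPM in the Yap knockout and 41.3 CPM in the control, a ratio of 2.07 (1.64 to 2.63). Parietal-like cells held little, at 9.16 CPM in the Yap knockout and 3.30 CPM in the control. The YAP5SA epithelium with no subclass was at 24.5 CPM, a ratio of 0.591 (0.471 to 0.749) to control cells of no subclass. Most YAP5SA epithelium stood in a cluster apart from the control, so this ratio does not compare like cells. Whether Areg differs within a like cell type was not tested.

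Of the other ligands, Hbegf, Tgfa and Nrg1 were higher in YAP5SA. Ereg was scarce, at 2.10 CPM in YAP5SA (37 UMIs), 0.265 CPM in the Yap knockout (2 UMIs) and 1.79 CPM in the control (7 UMIs). The ratio was 1.17 (0.517 to 3.12) in YAP5SA and 0.148 (0.0150 to 0.777) in the Yap knockout, and without cells holding a mitosis UMI the YAP5SA ratio was 2.80 (0.651 to 25.2), so that its direction is not set by these counts. Hbegf was at 165 CPM in YAP5SA, 114 CPM in the Yap knockout and 115 CPM in the control, a ratio of 1.43 (1.30 to 1.59) for YAP5SA and 0.990 (0.883 to 1.11) for the Yap knockout. The YAP5SA level of Hbegf was above the others beyond counting error, and without cells holding any UMI of a mitosis marker (52.3% of YAP5SA, 35.2% of Yap knockout and 32.9% of control epithelial-like cells) the ratio was 1.92. Holding such a UMI moves with depth, which was greatest in YAP5SA, so these shares are no measure of division. Leaving such cells out also takes out deeper cells, and the part of depth was not tested. Tgfa was at 16.1 CPM in YAP5SA, 6.62 CPM in the Yap knockout and 7.42 CPM in the control, a ratio of 2.17 (1.48 to 3.30) for YAP5SA and 0.892 (0.554 to 1.46) for the Yap knockout. Without cells holding a mitosis UMI the YAP5SA ratio of Tgfa was 3.56 (1.91 to 7.36). Squamous-like cells carried more of it, at 28.7 CPM in the 121 squamous-like cells of YAP5SA, and the YAP5SA ratio was 1.96 without them. Nrg1 was at 24.9 CPM in YAP5SA, 11.9 CPM in the Yap knockout and 8.95 CPM in the control. The ratio was 2.78 (1.97 to 4.05) in YAP5SA and 1.33 (0.892 to 2.03) in the Yap knockout, and the YAP5SA ratio was 5.16 once the surrounding profile was subtracted; with each cell given the same weight, the Yap knockout ratio was 2.12. Nrg1 was higher in YAP5SA than in the control both in cells with a mitosis UMI, at 2.83 (1.78 to 4.76), and in cells without one, at 2.73 (1.61 to 4.93).

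The receptors split in YAP5SA. Egfr was at 46.1 CPM in YAP5SA, 17.9 CPM in the Yap knockout and 21.7 CPM in the control, a ratio of 2.12 (1.69 to 2.68) for YAP5SA and 0.822 (0.622 to 1.09) for the Yap knockout. The control value is near that read, from few UMIs, in cells that should lack the gene. Erythroid-like cells were at 13.9 CPM in YAP5SA (26 UMIs in 204 cells) and 23.3 CPM in the control (17 UMIs in 78 cells). After thinning, 4.70% of YAP5SA and 3.04% of control epithelial-like cells had an Egfr UMI, beside 1.35% of YAP5SA and 2.81% of control erythroid-like cells. Subtracting the surrounding profile gave a YAP5SA ratio of 3.79, and giving each cell the same weight gave 1.60. Erbb2 was at 54.7 CPM in YAP5SA, 35.3 CPM in the Yap knockout and 40.7 CPM in the control, and its YAP5SA ratio was 1.35 (1.14 to 1.60) with the Yap knockout at 0.869 (0.712 to 1.06). Squamous-like cells of YAP5SA held 96.0 CPM of Erbb2. Erbb3 was at 35.8 CPM in YAP5SA, 70.7 CPM in the Yap knockout and 55.0 CPM in the control, so that it was lower in YAP5SA at 0.651 (0.557 to 0.764) and higher in the Yap knockout at 1.29 (1.10 to 1.51). In neck- and chief-like cells it was at 93.3 CPM in the Yap knockout and 43.6 CPM in the control, a ratio of 2.14 (1.37 to 3.47), and in pit-like cells at 92.9 CPM in the Yap knockout and 102 CPM in the control, a ratio of 0.914 (0.663 to 1.28). Pit-like cells numbered 1 in YAP5SA and 115 in the control, so the YAP5SA ratio of Erbb3 does not compare like cells. Whether Erbb3 differs between YAP5SA and control within a like cell type was not tested.

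Of the feedback phosphatases, Dusp4 stood apart in the Yap knockout, and the Dusp6 intervals of both genotypes overlapped. Dusp4 was at 6.20 CPM in YAP5SA, 23.2 CPM in the Yap knockout and 5.63 CPM in the control. The Yap knockout ratio was 4.12 (2.64 to 6.74) and the YAP5SA ratio 1.10 (0.692 to 1.83). In the Yap knockout 85 of the 175 Dusp4 UMIs lay in parietal-like cells, which were at 97.3 CPM (147 cells, 30.6% with a UMI), against 9.90 CPM from 3 UMIs in the control (46 cells, 6.52% with a UMI). With parietal-like cells left out of both libraries, an alternative chosen after the values had been seen, the ratio was 2.56, and in cells of no subclass it was 2.51 (1.38 to 4.88). Dusp6 was at 11.4 CPM in YAP5SA, 9.27 CPM in the Yap knockout and 7.16 CPM in the control, a ratio of 1.60 (1.07 to 2.46) for YAP5SA and 1.29 (0.824 to 2.08) for the Yap knockout. The YAP5SA ratio depends on the cells and profile used: without cells holding a mitosis UMI it was 1.07 (0.583 to 2.07), and after subtraction of the surrounding profile 4.75.

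**Figure D2:**
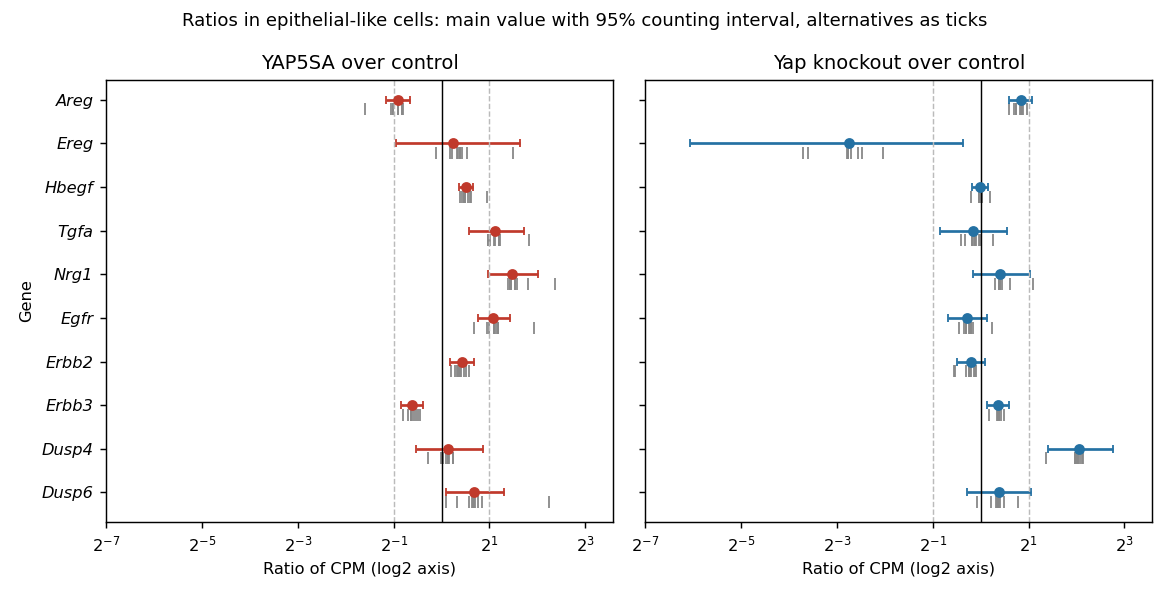
Ratio of CPM to control for each ErbB gene in epithelial-like cells (log2 axis, left YAP5SA, right Yap knockout; points are the values, bars the exact conditional Poisson 95% intervals, grey ticks the values under other processing choices, dashed lines 2-fold). Nrg1 lies at 2.78 and Areg at 0.533 in YAP5SA, Dusp4 lies at 4.12 in the Yap knockout, and Ereg has the widest bars.

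**Figure D3:**
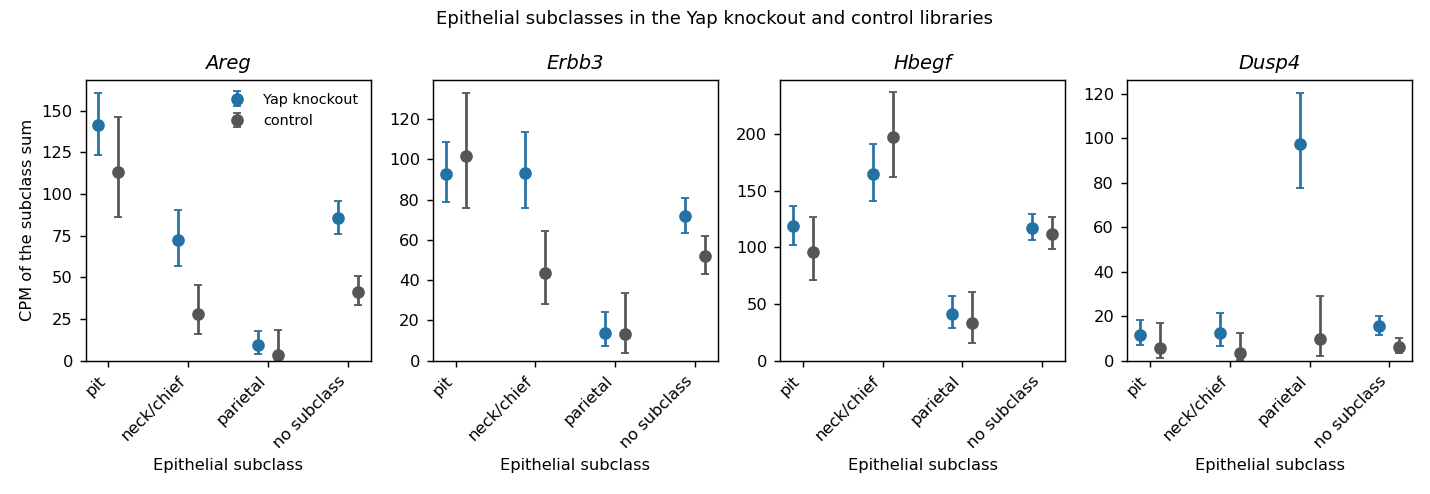
CPM of Areg, Erbb3, Hbegf and Dusp4 in the pit-like, neck- and chief-like, parietal-like and remaining epithelial-like cells of the Yap knockout and control libraries (points with exact Poisson 95% intervals). Dusp4 is at 97.3 CPM in Yap knockout parietal-like cells, above every other value of that gene, and Areg is highest in pit-like cells.

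Taking all ligands of the list, 60.7% of YAP5SA, 47.8% of Yap knockout and 40.9% of control epithelial-like cells held a UMI of at least 1 ligand. After thinning to 1000 UMIs per cell the share was 19.5% in YAP5SA, 19.3% in the Yap knockout and 15.995% in the control, values closer to each other than the unthinned ones. A UMI of at least 1 of the 3 receptors was in 59.1% of YAP5SA, 41.5% of Yap knockout and 40.1% of control cells, and after thinning in 14.5% of YAP5SA, 13.0% of Yap knockout and 13.5% of control cells.

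Outside the epithelium the level of several of these genes differed between cell classes. Erbb2 was spread over classes, in YAP5SA at 33.1 CPM in fibroblast-like, 34.8 CPM in pericyte-like and 27.8 CPM in enteric glia-like cells. Erbb3 was highest in enteric glia-like cells, at 138 CPM in YAP5SA, 140 CPM in the Yap knockout and 134 CPM in the control, with ratios of 1.03 (0.837 to 1.27) for YAP5SA and 1.05 (0.882 to 1.24) for the Yap knockout, and no difference was detectable at this depth; neuregulin acting on ERBB3 is known as a survival signal for glia of the Schwann cell lineage. Nrg1 was highest in enteric neuron-like cells of the Yap knockout and control, at 43.5 CPM in the Yap knockout and 43.2 CPM in the control; YAP5SA enteric neuron-like cells were at 25.5 CPM, a ratio of 0.591 (0.341 to 0.988). In fibroblast-like cells Nrg1 was above the control in both genotypes, at 28.1 CPM in YAP5SA and 27.9 CPM in the Yap knockout against 13.3 CPM in the control, ratios of 2.11 (1.77 to 2.51) for YAP5SA and 2.09 (1.49 to 2.88) for the Yap knockout. With classes from Leiden clusters, a grouping of cells by their overall expression, the Nrg1 ratio was 2.29 in YAP5SA and 3.71 in the Yap knockout, from 30.2 CPM in YAP5SA, 49.0 CPM in the Yap knockout and 13.2 CPM in the control. In the clustering of all cells, fibroblast clusters differed between the libraries. Those led by C4b and Mfap4 and by Notum and Tac2 held 1840 and 1228 cells of YAP5SA, 0 of the Yap knockout, and 25 and 6 of the control. The cluster led by Clec3b and Agtr2 held 76 YAP5SA, 275 Yap knockout and 1408 control cells, and the one led by Dpt and Spon2 held 33 YAP5SA, 95 Yap knockout and 1663 control cells. Of all Egfr UMIs, 43.7% in YAP5SA, 18.9% in the Yap knockout and 6.18% in the control lay in epithelial-like cells. Fibroblast-like cells held 21.3% of them in YAP5SA, 13.5% in the Yap knockout and 52.8% in the control. Fibroblast-like cells were 21.99% of kept cells in YAP5SA, 5.21% in the Yap knockout and 43.4% in the control. Shares of UMIs move with such cell numbers. The Egfr level of fibroblast-like cells was 35.3 CPM in YAP5SA, 56.9 CPM in the Yap knockout and 42.4 CPM in the control. The fibroblast ratios of Egfr were 0.833 (0.735 to 0.942) for YAP5SA and 1.34 (1.07 to 1.66) for the Yap knockout. Pericyte-like cells were at 33.5 CPM of Egfr in YAP5SA, 67.5 CPM in the Yap knockout and 65.8 CPM in the control. With classes from Leiden clusters the pericyte levels were 24.7 CPM in YAP5SA, 50.1 CPM in the Yap knockout and 34.3 CPM in the control. Fibroblast markers in the gated pericyte-like cells had a median of 62.5 UMIs per 10000 in YAP5SA, 55.8 in the Yap knockout and 178 in the control, and their part in the Egfr values was not tested. Dusp6 was highest in endothelial-like cells, at 96.0 CPM in YAP5SA, 122 CPM in the Yap knockout and 78.8 CPM in the control, with a Yap knockout ratio of 1.55 (1.27 to 1.89). Hbegf in those cells was at 89.2 CPM in YAP5SA and 75.9 CPM in the Yap knockout against 37.3 CPM in the control, ratios of 2.39 (1.82 to 3.17) for YAP5SA and 2.04 (1.55 to 2.70) for the Yap knockout. In macrophage-like cells Hbegf was below the control, at 43.1 CPM in YAP5SA and 34.8 CPM in the Yap knockout against 72.7 CPM in the control, ratios of 0.593 (0.480 to 0.736) for YAP5SA and 0.479 (0.359 to 0.636) for the Yap knockout. Enteric glia-like cells held Hbegf at 92.9 CPM in YAP5SA and 69.4 CPM in the Yap knockout against 120 CPM in the control. The glial ratios were 0.772 for YAP5SA and 0.576 for the Yap knockout. Over the non-epithelial classes with at least 50 cells in both libraries, 2 of 26 ratios of these genes at 20 CPM or more passed 2-fold in YAP5SA, beside 6.95% of all gene-by-class ratios, and 6 of 25 did in the Yap knockout, beside 9.94%. Among the 6, Hbegf (32 against 23 UMIs) and Nrg1 (10 against 4 UMIs) in pericyte-like cells rest on few UMIs. So does Dusp6 in cells like interstitial cells of Cajal (9 against 27 UMIs). Of all genes at that level, 19.9% passed 2-fold in pericyte-like cells and 15.2% in the Cajal-like cells of this comparison. With classes from Leiden clusters the Yap knockout count was 3, namely Nrg1 in fibroblasts and Hbegf in endothelial cells and macrophages.

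**Figure D4:**
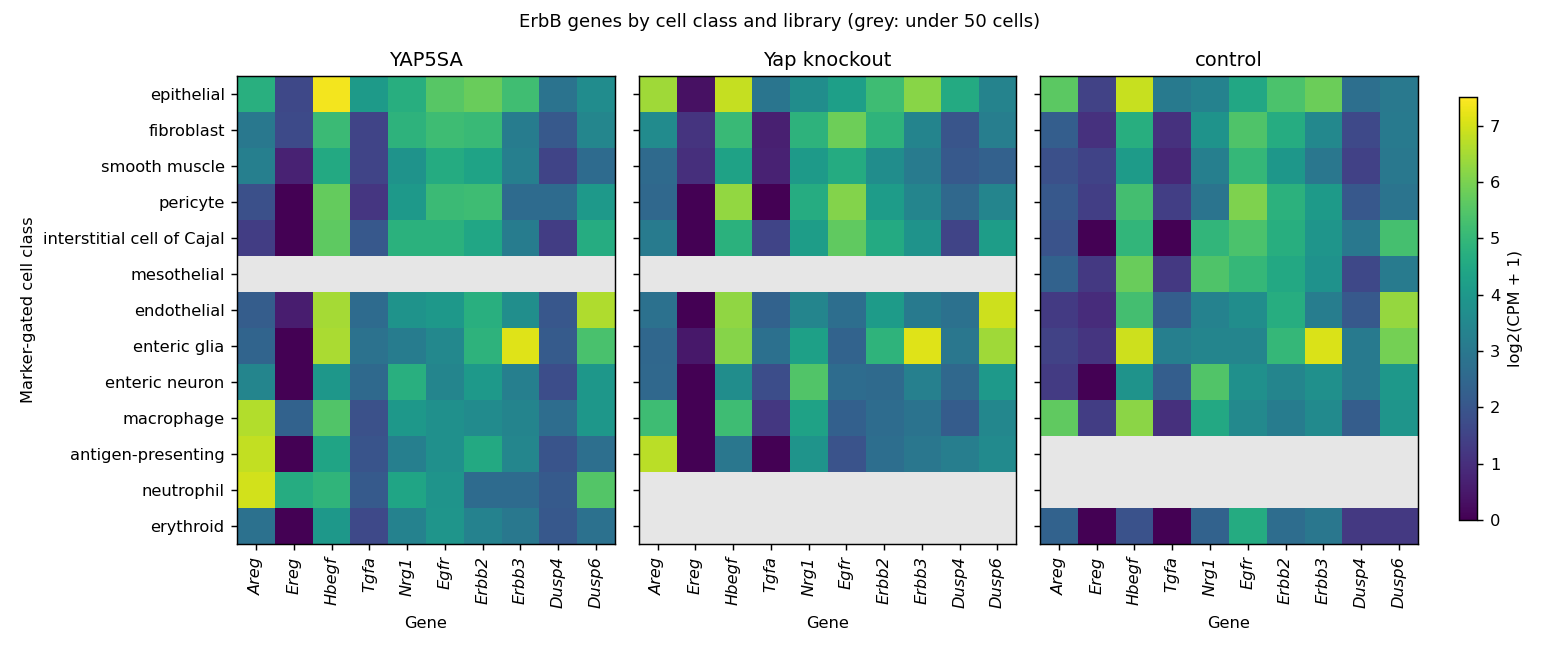
Log2(CPM + 1) of each ErbB gene in each marker-gated cell class, 1 panel per library (colour scale at the right, grey where the class had under 50 cells). Erbb3 is brightest in enteric glia-like cells in all 3 panels, Areg is bright in macrophage-like and antigen-presenting cells of YAP5SA, and Dusp6 in endothelial-like cells.

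Areg was also found in immune cells. Macrophage-like cells held 97.5 CPM in YAP5SA, 34.8 CPM in the Yap knockout and 50.2 CPM in the control, ratios of 1.94 (1.56 to 2.44) for YAP5SA and 0.694 (0.509 to 0.945) for the Yap knockout. The direction in the Yap knockout turned with classes from Leiden clusters, where macrophage Areg was at 113 CPM in YAP5SA, 85.8 CPM in the Yap knockout and 71.8 CPM in the control, ratios of 1.58 for YAP5SA and 1.20 for the Yap knockout. Antigen-presenting cells were at 110 CPM in YAP5SA, 105 CPM in the Yap knockout and, from 29 cells, 76.7 CPM in the control. Neutrophil-like cells of YAP5SA, 202 cells, were at 126 CPM. Lymphoid-like cells were few, and Areg in them was at 30.8 CPM in YAP5SA (38 cells, 10 UMIs), 219 CPM in the Yap knockout (38 cells, 86 UMIs) and 55.6 CPM in the control (25 cells, 10 UMIs). In the Yap knockout 34 of the 86 UMIs lay in 1 cell. Of all Areg UMIs, 26.3% in YAP5SA, 48.2% in the Yap knockout and 35.7% in the control lay in epithelial-like cells. These were 20.9% of kept cells in YAP5SA, 21.0% in the Yap knockout and 10.2% in the control. Macrophage-like cells held 33.0% of the Areg UMIs in YAP5SA and were 9.79% of its kept cells. Areg in YAP5SA fibroblast-like and smooth muscle-like cells was 1.86-fold (1.32 to 2.64) and 3.31-fold (1.87 to 6.06) above the control, at levels of only 6.97 and 8.38 CPM. Areg UMIs in erythroid-like cells were at 5.89 CPM in YAP5SA and 4.11 CPM in the control. A smooth muscle cluster led by Actg2 and Ckm held 449 YAP5SA, 0 Yap knockout and 4 control cells, and one led by Pcp4 and Cnn1 held 21 YAP5SA, 736 Yap knockout and 690 control cells. Areg sits between Ereg and Btc in the RefSeq gene order of GRCm38.p6.

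Beside the members, 6 other ligand genes and the receptor Erbb4 were followed. At 5 CPM or more stood 1 of the 6 ligands in the YAP5SA comparison, which was at least 2-fold lower (Nrg3), and 2 in the Yap knockout comparison, both at least 2-fold higher (Nrg3 and Btc), beside 12.7% of all genes higher and 10.3% lower in YAP5SA and 5.66% higher and 5.00% lower in the Yap knockout. Egf, Epgn, Nrg2 and Nrg4 did not reach 5 CPM, and counts this small say nothing of the list as a whole. Erbb4, the remaining receptor of neuregulins, was at 25.5 CPM in YAP5SA, 5.56 CPM in the Yap knockout and 3.84 CPM in the control epithelial-like cells, a YAP5SA ratio of 6.64 (3.98 to 11.96) from 448 and 15 UMIs. Nrg3, another neuregulin, was at 3.69 CPM in YAP5SA, 22.9 CPM in the Yap knockout and 9.46 CPM in the control, ratios of 0.391 for YAP5SA and 2.42 for the Yap knockout. The 8 enteric neuron markers in the same epithelial-like sums, all 8 with UMIs in each library, summed to 124 CPM in YAP5SA, 398 CPM in the Yap knockout and 145 CPM in the control, and their part in the Nrg3 values was not tested. Betacellulin (Btc), an EGFR ligand, was at 10.99 CPM in the Yap knockout and 3.58 CPM in the control, a ratio of 3.07 (1.73 to 5.86). Among 4 shedding genes, 0 passed 2-fold in either genotype, which with so few genes is near the shares of all genes just given; iRhom2 (Rhbdf2) was at a ratio of 1.79 and iRhom1 (Rhbdf1) at 0.600 in the Yap knockout. Of the 13 adaptor and kinase genes 0 passed 2-fold in either genotype, beside the same shares of all genes. In YAP5SA the highest of them were Map2k1 (1.47), Nras (1.45) and Gab1 (1.44), and the lowest Mapk3 (0.636) and Shc1 (0.800).

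Of 11 negative regulators at 5 CPM or more, 1 was at least 2-fold higher in YAP5SA and 0 lower, beside 12.7% and 10.3% of all genes, and 0 passed 2-fold in the Yap knockout, beside 5.66% and 5.00%. Shares this near those of all genes are no result about the list. The ERK antagonist Spry1 was at 29.4 CPM in YAP5SA against 13.6 CPM in the control, and the next highest ratios in YAP5SA were those of the phosphatases Dusp7 (1.81) and Dusp5 (1.45). The lowest in YAP5SA were Errfi1 (0.605), whose product binds and inhibits EGFR, Lrig3 (0.641) and Lrig1 (0.665). In the Yap knockout the highest were Dusp5 (1.56), Spred1 (1.39) and Errfi1 (1.33), and the lowest Spry1 (0.713), Spry4 (0.863) and Lrig3 (0.883).

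The 10 genes known to respond to MAP kinase went both ways in YAP5SA: 4 were at least 2-fold higher and 3 at least 2-fold lower, beside 12.7% and 10.3% of all genes at 5 CPM or more. Emp1 was at a ratio of 3.00, Ier3 at 2.85 and Ccnd1 (cyclin D1) at 2.51, and the remaining gene past 2-fold, named after its value had been seen, was Plaur at 2.16. The AP-1 subunit Fosl1 was at 0.380, and of the ETS factors Etv5 was at 0.373 and Etv4 at 0.436. In the Yap knockout 0 of the 10 passed 2-fold, beside 5.66% of all genes higher and 5.00% lower. There Fosl1 was at 1.96, Etv4 at 1.76 and Etv5 at 1.70, while Emp1 was at 0.634 (0.535 to 0.753) and Ier3 at 0.717 (0.638 to 0.806), all 5 on the other side of 1 from their YAP5SA ratios. Egr1 was under 1 in both genotypes, at 0.561 in YAP5SA and 0.718 in the Yap knockout. Both comparisons use the same control library. The genes of this list were chosen with earlier results of these data known.

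**Figure D5:**
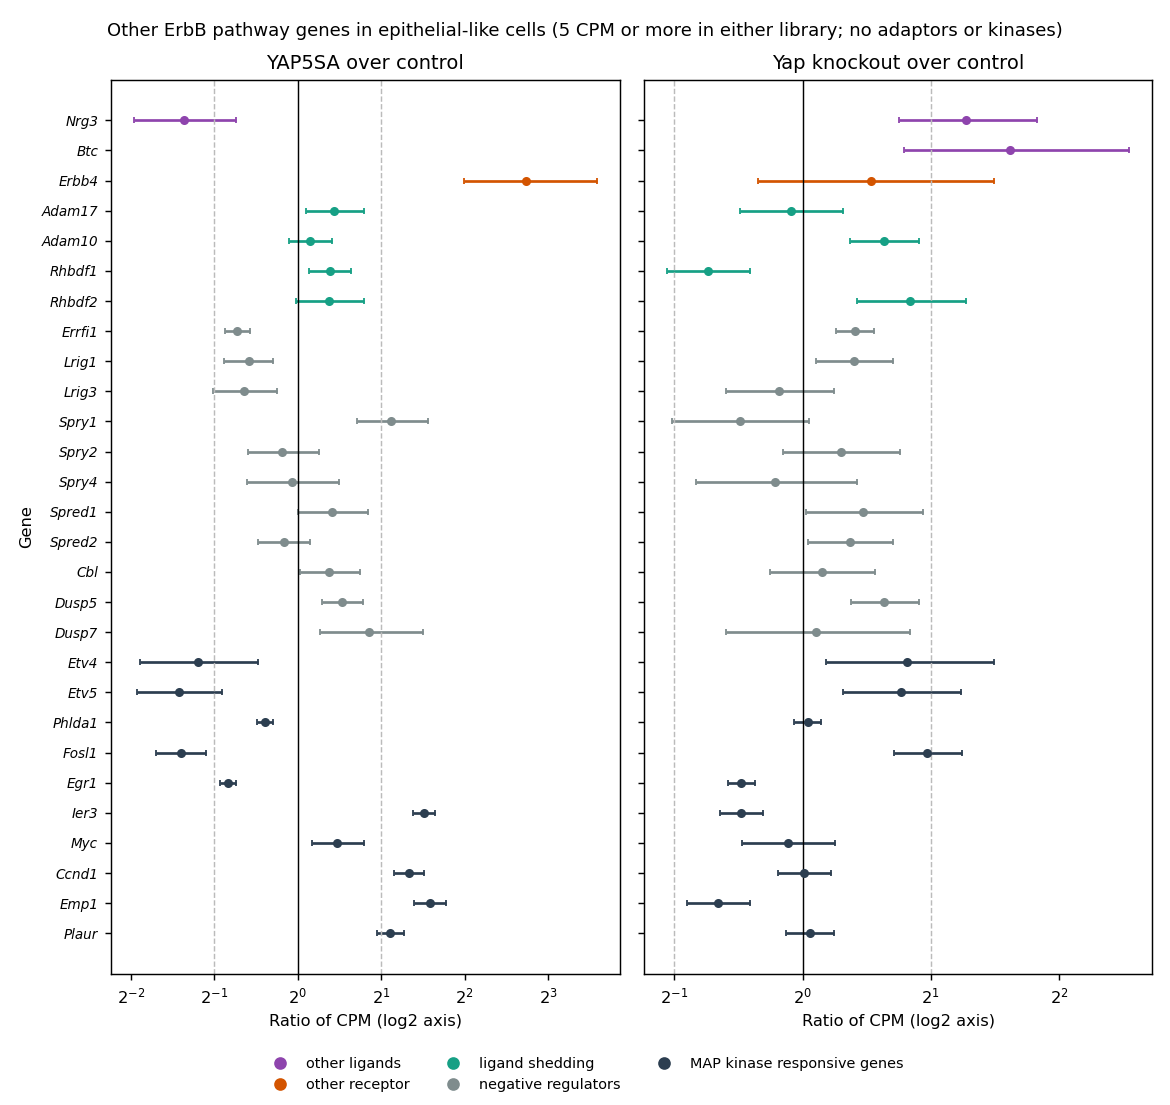
Ratio of CPM to control for other ErbB pathway genes at 5 CPM or more in epithelial-like cells, without the adaptor and kinase genes (log2 axis, left YAP5SA, right Yap knockout; bars are exact conditional Poisson 95% intervals, colours mark the gene lists). Erbb4 lies at 6.64 in YAP5SA, and Etv4, Etv5 and Fosl1 lie under 1 in YAP5SA and over 1 in the Yap knockout.

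The genes whose levels over 33 class-by-library sums were most like each ErbB gene, by Pearson correlation of log2(CPM + 5), give a description of where each gene is read. For Areg they were Rab11fip1 (0.95), Psd4 (0.93) and Slc7a11 (0.93), for Erbb3 Gal3st1 (0.96), Sema3b (0.89) and Sox2 (0.89), and for Egfr Slc38a4 (0.91), Plekhh2 (0.89) and Mrc2 (0.85). The closest to Erbb2 was Cdc42ep5 (0.92), to Dusp6 Zfp608 (0.87), to Hbegf Rnpepl1 (0.81), to Dusp4 Clec2h (0.76), to Nrg1 Gria1 (0.70) and to Ereg Chil3 (0.89). Sums of 1 library share their depth and free RNA. Tgfa reached 20 CPM in none of the sums and has no such list.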

How the data were processed

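Single-cell 3′ libraries were made from dissociated E18.5 glandular stomach, 1 per genotype. Per the file headers, PISA 1.0 made the deposited matrices, whose values are whole UMI counts; STAR and GRCm39 are named by the submitters' processing notes. The authors stated no normalization. Deposited totals were 65843658 UMIs in YAP5SA, 40857358 in the Yap knockout and 48910624 in the control. Cells with at least 500 genes and at most 20% mitochondrial UMIs were kept. Scrublet in scanpy 1.11.5 called only 3 or 4 cells per library by its own threshold, which is a failed call, so the top 6% by score were taken out.

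A cell entered a class when the class's markers reached a set number of UMIs per 10000 (20 for epithelial), with at least 3 UMIs and 2 markers; these thresholds were set after the distributions had been seen, and 331 YAP5SA, 237 Yap knockout and 151 control cells lay within 15 to 25. Cells of several classes (241 YAP5SA, 48 Yap knockout and 95 control) and of none (1902 YAP5SA, 1158 Yap knockout and 927 control) were left out. UMIs were summed per class and library and scaled to CPM. Ratios carry an exact Poisson interval (conditional on the summed UMIs of both libraries), shares the Clopper-Pearson interval; both cover counting error only. Ratios are given in classes with at least 50 cells in both libraries. The calculation was tested on simulated data. With 1 library per genotype no test was made. Thinning to 1000 UMIs was computed exactly. Named genes are the 10 listed, up to 3 of the highest and lowest of each pathway list per comparison and the 3 most alike genes; 1 gene is not reported here. The members and lists were chosen with earlier results of these data known. Alternatives were classes from Leiden clusters (igraph 0.11.9), a stricter gate, no doublet removal and at most 10% mitochondrial UMIs. Others were squamous-like cells left out, cells with a mitosis UMI left out, TMM scaling, subtraction of the surrounding profile, and equal weight per cell. Filters at 5 CPM or none were also tried. Software was scipy 1.17.1 and numpy 2.4.6 under Python 3.11.15, with pandas 2.3.3 for tables and matplotlib 3.10.9 for plots.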

Additional observations from a re-analysis of the deposited data

Results flagged for a closer look

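In 6 cases the same genotype comparison ran in opposite directions in epithelial-like cells and in another class, each past 1.5-fold with an interval that excluded 1. The difference between the classes was not tested. Areg in YAP5SA was at a ratio of 0.533 in epithelial-like cells, against 1.86 in fibroblast-like, 3.31 in smooth muscle-like, 6.53 in enteric neuron-like and 1.94 in macrophage-like cells. The enteric neuron value rests on few UMIs, with an interval from 1.30 to 63.1. The fibroblast-like and smooth muscle-like values rest on low levels, close to the Areg level of erythroid-like cells given above, which should lack the gene. Nrg1 in YAP5SA was at 2.78 in epithelial-like and 0.591 in enteric neuron-like cells. Egfr in YAP5SA was at 2.12 in epithelial-like and 0.509 in pericyte-like cells; with classes from Leiden clusters the pericyte ratio was 0.721, which is not past 1.5-fold.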

How the results depend on the processing

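Among the epithelial-like ratios whose interval excluded 1, none of the 10 settings tried turned the direction; among the others, Ereg and Dusp4 in YAP5SA and Hbegf, Tgfa, Egfr and Dusp6 in the Yap knockout lay on both sides of 1. Over these settings, 92 of 100 values of YAP5SA and 91 of 100 of the Yap knockout stayed inside the counting interval, and the count of genes past 2-fold stayed within 1.5 times. In YAP5SA that count was 3 and ran from 2 (Leiden clusters, Nrg1 higher and Areg lower) to 4 (surrounding profile subtracted, or parietal-like cells left out); in the Yap knockout it was 2 and ran from 2 to 3. The count of all genes past 2-fold moved with the filter, as did the number of genes tested. In YAP5SA it was 1547 of 7249 at 20 CPM (21.3%), 2940 of 12796 at 5 CPM (23.0%) and 18833 of 36271 with no filter (51.9%). In the Yap knockout it was 432 of 6912 at 20 CPM, 1354 of 12708 at 5 CPM and 14779 with no filter. The number of non-epithelial ratios of these genes past 2-fold was 6 in the Yap knockout and 3 with classes from Leiden clusters. For the clusters no share of all genes stands beside it. The parietal-like alternative was added after the values had been seen. No paired analysis was possible because each genotype has 1 library, which also leaves no replicate to leave out. Depth limits Ereg (2 to 37 UMIs) and Dusp4 in the control (22 UMIs).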
